A study of Mus musculus with 6 samples.

Results

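The vascular tone genes are 10 genes through which the endothelium, the inner lining of blood vessels, sets the width of the vessel: Nos3, Edn1, Ece1, Ace, Ptgs1, Ptgs2, Ptgis, Adm, Calcrl and Ramp2. They were chosen by name as a pathway group, with earlier results of these data known. All 10 of 10 were found by symbol among 24520 genes in the deposited tables. The RNA came from sorted mouse lung endothelial cells and made up 3 libraries labelled KO and 3 labelled WT for Dnmt3a, a DNA methyltransferase that sets new methylation. Where 3 values are given for a label, they are those of replicates 1, 2 and 3 in that order. The sources used here state no strain, age, allele, Cre promoter, sort gate or treatment. Nothing says that each library came from its own animal, so the p-values reflect only how these libraries vary, part of which may be technical.

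Nitric oxide, made by the NOS3 enzyme, and prostacyclin, made by a cyclooxygenase followed by prostacyclin synthase, relax the muscle of the vessel wall. Endothelin-1, the product of Edn1, constricts it after cleavage by ECE1, and ACE, which is known for its abundance in lung capillaries, makes the constrictor angiotensin II and destroys bradykinin. Adrenomedullin, the product of Adm, relaxes vessels and steadies the endothelial barrier through a receptor built from CALCRL and its partner RAMP2.

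Library totals ran from 28136194 to 31402838 estimated counts in KO and from 29482747 to 39999172 in WT. Endothelial RNA was abundant throughout, with Pecam1, an endothelial adhesion molecule, at 1846 to 2085 CPM (counts scaled to library size with edgeR's TMM factors) in KO and 1865 to 2461 CPM in WT. The targeted gene ran against the labels: Dnmt3a had 5090, 4878 and 4750 counts in KO and 1235, 1079 and 1198 in WT (log2 fold change 2.22, SE 0.11, edgeR adjusted p = 0.00157). Directions below are therefore those of the libraries labelled KO relative to the libraries labelled WT. These counts cover the gene as a whole, and single exons were not analysed here. Xist and Y-linked genes were those of a female in replicate 1 and of males in replicates 2 and 3 under each label.

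None of the 10 members passed the test between the labels (edgeR's quasi-likelihood test, adjusted p under 0.05), where 5 of 14667 tested genes passed, or 0.0341% (3 higher in KO, 0.0205%, and 2 lower in KO, 0.0136%). At an unadjusted p under 0.05 there were 2 of 10, Edn1 and Ptgs1, against a background of 12.6%, and DESeq2 called 0 of 10 where it called 2.79% of all genes (1.47% higher and 1.31% lower in KO). The 10 members had a median log2 fold change of 0.06, against 0.01 over all tested genes, with 7 positive and 3 negative, where 50.9% of all tested genes were positive. The groups were without overlap for 1 member, Edn1, lower in KO, and for 20.3% of all tested genes, with 9.42% of tested genes without overlap and lower in KO. Read against these shares, the counts over 10 genes show nothing particular to the members. What set the members apart from each other was their level and the single libraries in which they peaked.

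Levels were compared between genes in TPM (transcript abundance corrected for length and library size). Calcrl, the adrenomedullin receptor, averaged 1928 TPM over the 6 libraries and Ramp2, its partner, 1920 TPM, ranks 50 and 51 of all genes in the tables. Their ranges overlapped and Calcrl was the higher in 4 of 6 libraries, so the order of these neighbours was not settled. Ace followed at 951 TPM and Edn1 at 196 TPM, each with a range apart from its neighbours. Nos3 at 46.4 TPM, Ece1 at 36.6 TPM, Ptgs1 at 36.1 TPM and Ptgis at 27.9 TPM overlapped from one neighbour to the next. Adm, at 5.13 TPM, and Ptgs2, at 0.563 TPM, lay below them, again with ranges apart.

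**Figure D1:**
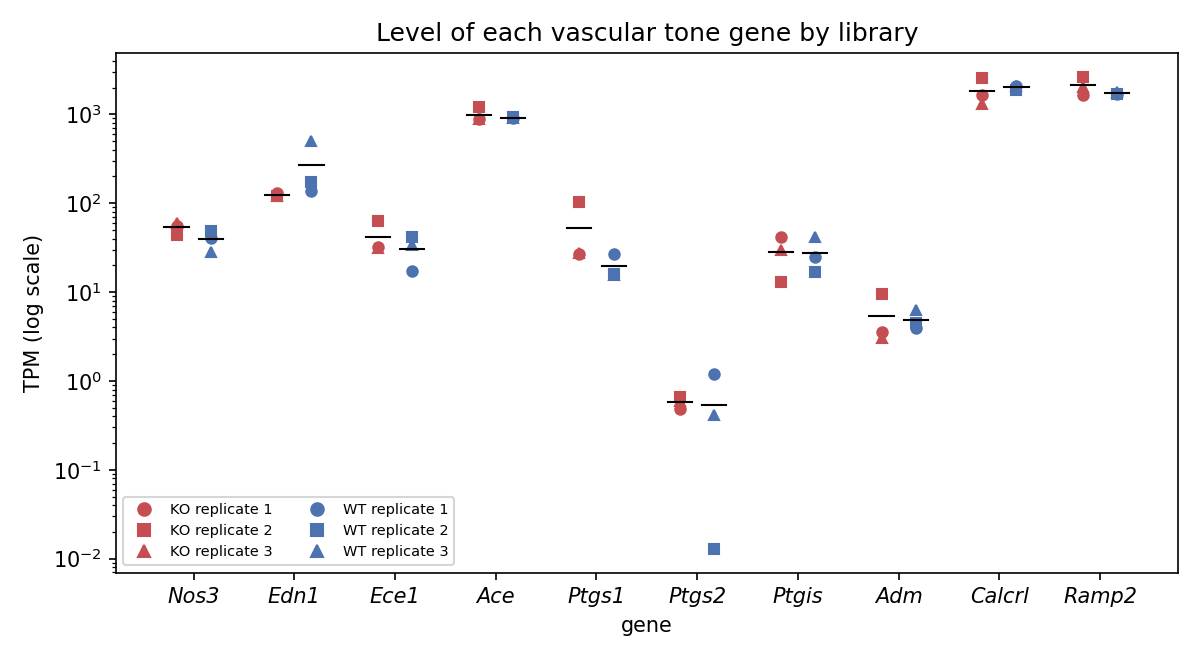
Level of each member in TPM on a log axis, with KO libraries left of WT libraries; each point is 1 library and the bar is the mean of 3. Calcrl, Ramp2 and Ace are the highest, Ptgs2 is the lowest, and Edn1 in WT replicate 3 stands above the other 5 libraries.

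Edn1, the gene of the constrictor peptide (ENSMUSG00000021367, mm10, chr13:42301476-42307990, plus strand, protein coding), was the only member whose labels did not overlap. It was at 146, 143 and 142 CPM in KO and at 165, 203 and 641 CPM in WT. The KO libraries were nearly equal, while WT replicate 3 was far above all others. The log2 fold change was -1.22 (SE 0.48), which missed the threshold (edgeR adjusted p = 0.366). Without WT replicate 3 it was -0.35 (SE 0.13, edgeR adjusted p = 0.672), with both remaining WT libraries still above every KO library. Within the female libraries Edn1 was at 146 CPM in KO and 165 CPM in WT, and within the male libraries it averaged 143 CPM in KO and 422 CPM in WT (n = 2 each). WT replicate 3 was 3.49 times the mean of the other WT libraries, a ratio that 0.248% of 12907 genes exceeded.

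More than 1 list had its highest sum in the same library. The 9 arterial markers summed to 2470 to 3041 CPM in KO and 3012 to 4391 CPM in WT, highest in WT replicate 3. The 12 pan-endothelial markers also summed highest there, at 18594 CPM, against 14529 CPM in WT replicate 1. General capillary and lymphatic markers summed lowest there, at 7482 and 357 CPM. The hypoxia response list was another with its highest sum in this library. Its 11 genes, which include Adm (itself highest in KO replicate 2), summed to 577 to 659 CPM in KO and 788 to 1396 CPM in WT, with WT replicate 3 at the top. Most of that sum was Ldha, a lactate dehydrogenase of the list, at 368, 311 and 394 CPM in KO and at 493, 563 and 944 CPM in WT. Of the 11 genes, 3 were positive and 8 negative, with a median log2 fold change of -0.30. The labels did not overlap for 3 of them, with Ldha included, and for 20.3% of all tested genes. WT replicate 3 also held Cd74, the MHC class II invariant chain, at 14.4 times the mean of the other WT libraries, the largest such ratio of these 12907 genes. The part of these transcripts in the level of Edn1 was not tested. Over the 6 libraries the genes whose profile lay nearest to that of Edn1 were Ecm1, a secreted matrix protein gene, and Slc6a6, the taurine transporter, at distances of 0.506 and 0.534 in centred log2 CPM among 8834 genes.

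The bases just before the annotated start of Edn1 are shown because it was the member that separated the labels and because Dnmt3a acts on CpG sites, which the capitals mark. The stretch is chr13:42301226-42301475 on the plus strand of GRCm38.p6, from RefSeq.
Edn1 upstream: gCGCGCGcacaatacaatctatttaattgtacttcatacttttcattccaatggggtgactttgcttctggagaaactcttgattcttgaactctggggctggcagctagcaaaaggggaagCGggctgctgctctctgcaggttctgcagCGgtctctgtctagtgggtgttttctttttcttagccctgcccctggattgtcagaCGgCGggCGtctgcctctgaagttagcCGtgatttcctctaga
It holds 9 CpG sites, more than 59.7% of the 32851 promoters in the table, whose median was 6 in the same 250 bases. The core of the hypoxia response element, ACGTG on either strand, is not in this window, and 16.6% of promoters hold it. Methylation was not measured in these files.

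Ece1, the endothelin-converting enzyme (chr4:137862237-137965229), was at 87.4, 180 and 88.9 CPM in KO and at 50.0, 118 and 107 CPM in WT. The labels overlapped, with KO replicate 2 highest and WT replicate 1 lowest (log2 fold change 0.38, SE 0.39, edgeR adjusted p = 0.706). Leaving out single libraries took the value from -0.06, without KO replicate 2, to 0.60. Per library the TPM ratio of Ece1 to Edn1 was 0.247, 0.519 and 0.259 in KO and 0.125, 0.240 and 0.069 in WT. Every KO library was above every WT library, by 0.247 against 0.240 at the closest. Edn1 alone was already without overlap between the labels, lower in KO, so the separation of this ratio was not independent of it. An exact permutation test gave a two-sided p of 0.1, the smallest that 3 against 3 allows (0.15 adjusted over 3 ratios).

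The receptors of endothelin were measured beside the peptide. Ednrb, the receptor of endothelium and of lung aerocytes, was at 618, 1354 and 908 CPM in KO and at 778, 878 and 798 CPM in WT (log2 fold change 0.23, SE 0.26, edgeR adjusted p = 0.739). Ednra, the receptor of vascular smooth muscle, reached 12.1, 19.8 and 2.61 CPM in KO and 12.3, 7.48 and 12.4 CPM in WT. Its TPM was 0.00267 to 0.0187 of that of Ednrb. Smooth muscle and pericyte markers, all 8 of 8 detected, summed to 577, 519 and 129 CPM in KO and to 339, 111 and 476 CPM in WT. Their part in Ednra was not tested. Edn3 averaged 1.16 ± 0.773 TPM in KO and 0.772 ± 0.0594 TPM in WT (SD, n = 3 each), and Ece2 was at 0 in all 6 libraries. Mme, a peptidase gene of this list, had a log2 fold change of -0.71 and did not pass. The value was 0.82 without WT replicate 1 and -1.85 without KO replicate 1. In all, 6 of 9 endothelin genes were tested and none passed, 4 were positive and 2 negative, and the median log2 fold change was 0.17.

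**Figure D2:**
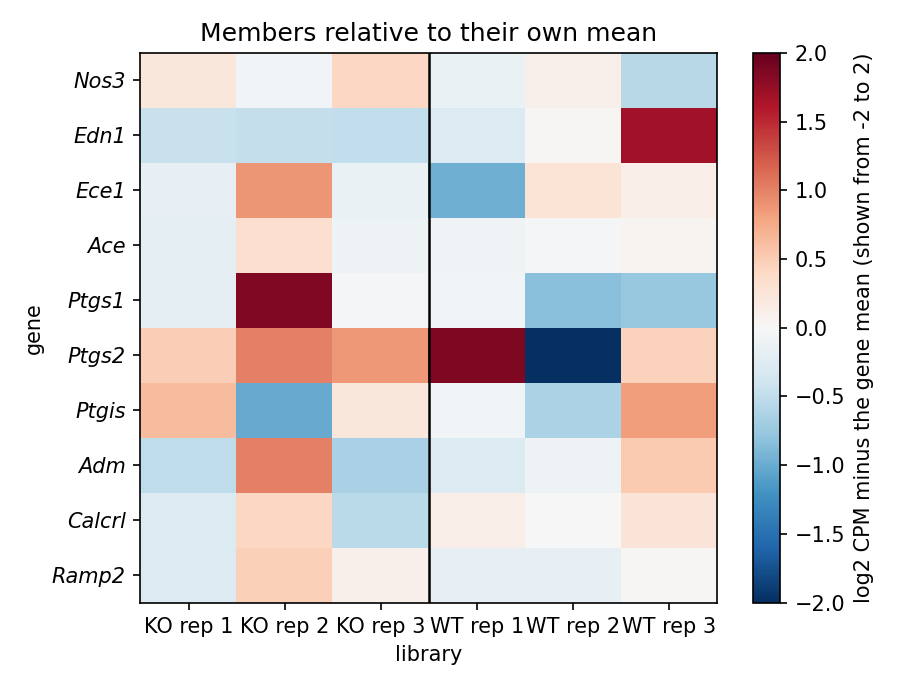
Each member in each library as log2 CPM minus the mean of that gene over the 6 libraries, KO libraries left of the line and WT libraries right of it. The colours end at -2 and 2; KO replicate 2 holds 6 of 10 members at their highest, and Edn1 is highest in WT replicate 3.

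Nos3, the endothelial nitric oxide synthase (ENSMUSG00000028978, chr5:24364810-24384474), was at 125, 103 and 142 CPM in KO and at 97.0, 115 and 72.6 CPM in WT. KO replicate 2 lay below WT replicate 2, so the labels overlapped. The log2 fold change was 0.38 (SE 0.19), which missed the threshold (edgeR adjusted p = 0.446), and it stayed between 0.22 and 0.54 when any 1 library was left out, the lowest being 0.22 without WT replicate 3. The log2 ratio between the labels was 0.37 in the female libraries and 0.39 in the male libraries. With 1 and 2 libraries per label these are too few to compare the sexes. For Ptgis, another member, the log2 ratio was 0.68 in the female and -0.54 in the male libraries. Over the 6 libraries Scrib, a cell polarity gene, and Fmr1, an RNA-binding protein gene, had the profiles nearest to Nos3, at distances of 0.123 and 0.167 in centred log2 CPM.

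Of the 33 nitric oxide genes all were tested and none passed by edgeR, with 15 positive, 18 negative and a median log2 fold change of -0.08. DESeq2 called 2 of them, Nos2 and Prmt1, both lower in KO, where it called 2.79% of all genes. The labels did not overlap for 6 of the 33, with Nos2, Prmt1 and Gch1 included, and for 20.3% of all tested genes. Nos2, the inducible synthase, was at 53.1, 45.4 and 51.9 CPM in KO and at 66.2, 71.1 and 71.0 CPM in WT, without overlap. Its log2 fold change was -0.47 (SE 0.11, edgeR adjusted p = 0.269, DESeq2 adjusted p = 0.0245). The TPM ratio of Nos2 to Nos3 was 0.384 to 0.463 in KO and 0.651 to 1.02 in WT; this ratio was chosen after its values were seen and was not tested. Prmt1, an arginine methyltransferase whose products include precursors of NOS inhibitors, averaged 52.3 ± 5.97 CPM in KO and 76.5 ± 8.12 CPM in WT (SD, n = 3 each, log2 fold change -0.55, SE 0.13, edgeR adjusted p = 0.282).

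The most abundant genes around the synthase differed little in their means. Cav1, the caveolin that binds and restrains NOS3, averaged 2286 ± 553 TPM in KO and 2407 ± 107 TPM in WT, and Hsp90ab1, a chaperone of the synthase, 1202 ± 154 TPM in KO and 1121 ± 76.7 TPM in WT. Ddah2, an enzyme assigned to the removal of the NOS inhibitor dimethylarginine, averaged 722 ± 84.7 TPM in KO and 820 ± 87.0 TPM in WT. Gch1, the first enzyme in the synthesis of the NOS cofactor tetrahydrobiopterin, was at 8.52, 6.47 and 8.26 CPM in KO and at 5.36, 6.13 and 4.08 CPM in WT. It was 1 of the 6 nitric oxide genes whose labels did not overlap, and it did not pass (log2 fold change 0.58, SE 0.26, edgeR adjusted p = 0.405). Gucy1a1 and Gucy1b1, the subunits of the cyclic GMP synthase that senses nitric oxide, did not pass either, Gucy1a1 with a log2 fold change of 0.01 (SE 0.55) and Gucy1b1 with -0.44 (SE 0.35).

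Ace (ENSMUSG00000020681, chr11:105967945-105989964) was the steadiest member by the ratio of its highest to its lowest library. It was at 1755, 2504 and 1841 CPM in KO and at 1889, 1938 and 2056 CPM in WT, with KO replicate 2 the highest and the labels overlapping. The log2 fold change was 0.05 (SE 0.16, edgeR adjusted p = 0.911), and the highest library was 1.43 times the lowest. Leaving out single libraries took the value from -0.13, without KO replicate 2, to 0.14. RefSeq lists 2 starts for Ace, with 19 CpG sites in the 250 bases before the first and 1 before the second; gene counts do not tell the starts apart.

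Of 21 angiotensin and kinin genes 14 were tested and none passed, with 4 positive, 10 negative and a median log2 fold change of -0.11. The most abundant apart from Ace were Ctsd, a lysosomal protease that can cleave angiotensinogen, at 640 ± 222 TPM in KO and 652 ± 169 TPM in WT, and Prcp, which degrades angiotensin II, at 216 ± 78.8 TPM in KO and 220 ± 33.4 TPM in WT. Atp6ap2, the prorenin receptor, was next, with a log2 fold change of -0.17 (SE 0.12). Of the receptors, Bdkrb2, which binds bradykinin, averaged 11.4 ± 4.13 TPM in KO and 14.2 ± 6.60 TPM in WT. Agtr1a, which binds angiotensin II, was at 0.947, 2.81 and 0 CPM in KO and at 0.913, 1.12 and 2.84 CPM in WT.

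Ptgs1, the constitutive cyclooxygenase (ENSMUSG00000047250, chr2:36230426-36252272), had the largest positive fold change of the members, and it rested on 1 library. It was at 41.9, 170 and 46.2 CPM in KO and at 45.4, 26.5 and 28.1 CPM in WT. KO replicate 2 was far above the rest, and KO replicate 1 lay below WT replicate 1. The log2 fold change was 1.37 (SE 0.55), which missed the threshold (edgeR adjusted p = 0.375). It was 0.40 (SE 0.25, edgeR adjusted p = 0.513) without KO replicate 2. That library was 3.87 times the mean of the other KO libraries, which 0.378% of 12951 genes exceeded. In the female libraries Ptgs1 was at 41.9 CPM in KO and 45.4 CPM in WT, and in the male libraries it averaged 108 CPM in KO and 27.3 CPM in WT (n = 2 each). Platelets carry much Ptgs1, and the platelet gene Pf4 was at 1.45, 0.825 and 0.203 CPM in KO and at 1.04, 0.372 and 2.55 CPM in WT. The list of 7 platelet and red cell markers, all detected, also holds haemoglobin genes, so its sum is not a measure of platelet RNA. It summed to 586 to 2185 CPM in KO and 802 to 3254 CPM in WT, with KO replicate 2 the lowest. The part of platelet RNA in the level of Ptgs1 was not tested.

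The stretch before the start of Ptgs1 is given for the same reason, as that of the member with the largest positive difference, at chr2:36230176-36230425 on the plus strand of GRCm38.p6, from RefSeq, with CpG sites in capitals.
Ptgs1 upstream: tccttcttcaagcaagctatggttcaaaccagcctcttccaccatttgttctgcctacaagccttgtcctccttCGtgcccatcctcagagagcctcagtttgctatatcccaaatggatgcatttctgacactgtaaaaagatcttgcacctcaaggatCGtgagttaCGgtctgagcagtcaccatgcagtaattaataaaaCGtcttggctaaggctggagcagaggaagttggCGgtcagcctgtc
It holds 5 CpG sites, against 9 before Edn1. Across the 7 of 10 members with an entry in the table, the counts ran from 1 to 23 per start.

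Ptgs2, the inducible cyclooxygenase (chr1:150100031-150108227), was barely present. It had 36, 53 and 47 counts in KO and 104, 1 and 45 counts in WT. WT replicates held both the highest and the lowest value, and the single count of WT replicate 2 has an exact 95% Poisson interval of 0.0253 to 5.57 counts. The log2 fold change was 0.05 (SE 1.05, edgeR adjusted p = 0.988), and leaving out single libraries took it from -0.52, without WT replicate 2, to 1.28, without WT replicate 1. It was also negative without KO replicate 2 (-0.06) and without WT replicate 3 (-0.08). Ptgs1 exceeded Ptgs2 in every library: the TPM ratio of Ptgs2 to Ptgs1 was 0.0182, 0.00647 and 0.0217 in KO and 0.0439, 0.000801 and 0.0267 in WT. The labels overlapped in this ratio (exact permutation test, two-sided p = 1).

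Ptgis, the prostacyclin synthase (chr2:167191805-167240604, minus strand), was at 37.3, 12.1 and 28.1 CPM in KO and at 23.3, 15.6 and 42.9 CPM in WT. It was lowest in KO replicate 2, where Ptgs1 was highest, so that the TPM ratio of Ptgs1 to Ptgis was 8.01 there and 0.372 to 1.10 in the other 5 libraries. The labels overlapped (log2 fold change -0.08, SE 0.48, edgeR adjusted p = 0.958). The value was 0.26 without KO replicate 2 and 0.41 without WT replicate 3, and it was -0.44 without KO replicate 1 and -0.36 without WT replicate 2. Fibroblast markers, all 8 of 8 detected, summed to 291 to 429 CPM in KO and 141 to 198 CPM in WT, without overlap. Of these 8, 7 were positive and 1 negative, and 5 were without overlap singly, as were 20.3% of all tested genes. The part of the fibroblast markers in the level of Ptgis was not tested.

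Of 25 prostanoid genes 21 were tested and none passed, with 10 positive, 11 negative and a median log2 fold change of -0.04. The 2 most abundant take part in ending prostaglandin signals. Hpgd, the enzyme that inactivates prostaglandins, was at 2173, 4395 and 1751 CPM in KO and at 2049, 1997 and 3022 CPM in WT. Slco2a1, the prostaglandin uptake transporter, averaged 515 ± 173 TPM in KO and 515 ± 79.5 TPM in WT, and Ptges3, a chaperone with prostaglandin E synthase activity, 223 ± 19.5 TPM in KO and 206 ± 20.6 TPM in WT. Tbxa2r, the receptor of the constrictor thromboxane, was at 50.0, 49.8 and 70.2 CPM in KO and at 73.6, 84.0 and 83.5 CPM in WT, without overlap (log2 fold change -0.50, SE 0.16, edgeR adjusted p = 0.32, DESeq2 adjusted p = 0.122). The labels did not overlap for 4 of the 21 tested prostanoid genes, with Tbxa2r included, and for 20.3% of all tested genes. Ptgir, the prostacyclin receptor, averaged 1.32 ± 0.831 TPM in KO and 0.957 ± 0.336 TPM in WT.

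**Figure D3:**
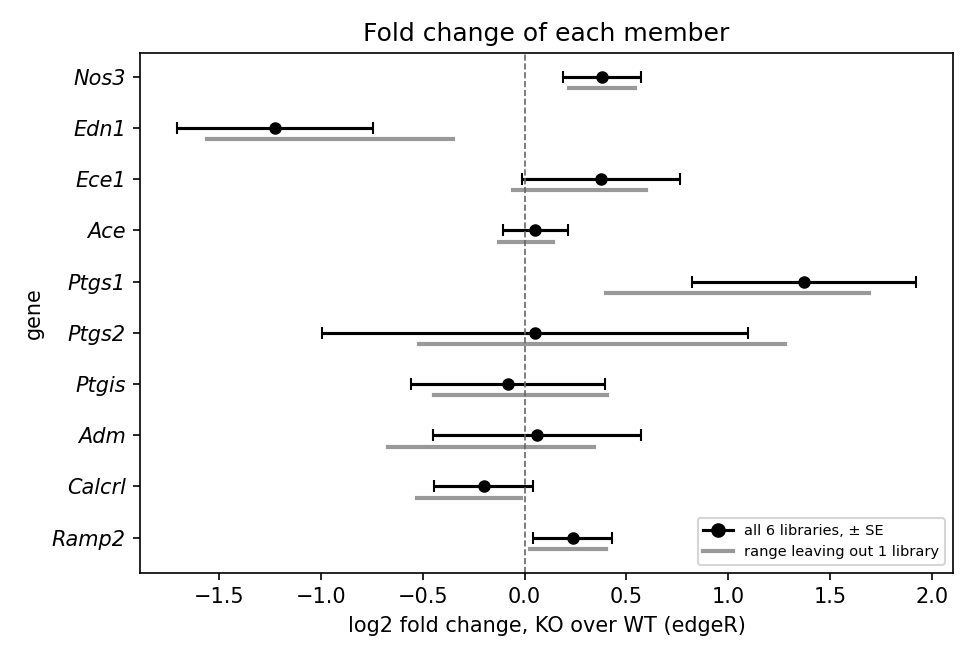
Log2 fold change of each member, KO over WT, as points with the standard error of the edgeR fit; the grey bar is the range of the value when each library is left out in turn. Edn1 lies at -1.22 and Ptgs1 at 1.37, and the grey bars bring them to -0.35 and 0.40.

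Adm, the adrenomedullin gene (ENSMUSG00000030790, chr7:110627661-110629820), was at 2.37, 6.77 and 2.17 CPM in KO and at 2.80, 3.15 and 4.88 CPM in WT. KO held both the highest and the lowest libraries, and the means differed by less than the spread between libraries (log2 fold change 0.06, SE 0.51, edgeR adjusted p = 0.973). Leaving out single libraries took the value from -0.67, without KO replicate 2, to 0.34. KO replicate 2 was 2.99 times the mean of the other KO libraries, which 0.757% of genes exceeded. The nearest profiles were those of S1pr3, a sphingosine-1-phosphate receptor, and Nckap1, an actin regulator, at distances of 0.298 and 0.328 in centred log2 CPM. Adm2, the gene of the related intermedin peptide, was near 0, at 0.0673 ± 0.117 TPM in KO and 0.309 ± 0.194 TPM in WT. Its SD in KO was above its mean, so these levels are too low to compare the labels.

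Calcrl (ENSMUSG00000059588, chr2:84330626-84425411, minus strand), the receptor, was at 4476, 7197 and 3717 CPM in KO and at 5877, 5362 and 6451 CPM in WT. KO replicate 2 was the highest and the other KO libraries the lowest of all 6 (log2 fold change -0.20, SE 0.24, edgeR adjusted p = 0.754). Without KO replicate 2 the value was -0.53 (SE 0.13, edgeR adjusted p = 0.325), and without KO replicate 3 it was -0.02. Ramp2 (ENSMUSG00000001240, chr11:101246028-101259546), the single-pass protein that makes CALCRL an adrenomedullin receptor, was at 613, 1033 and 801 CPM in KO and at 660, 664 and 755 CPM in WT. Again KO held the highest and the lowest library (log2 fold change 0.24, SE 0.19, edgeR adjusted p = 0.63), and the value lay between 0.03, without KO replicate 2, and 0.40 when single libraries were left out. Ramp2 overlaps Vps25 on the same strand, and 3470 to 5451 counts per library were assigned to Vps25, so some reads could have been split between them.

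The receptor and its partner were also compared within each library. The TPM ratio of Ramp2 to Calcrl was 0.994, 1.04 and 1.56 in KO and 0.815, 0.899 and 0.849 in WT. All KO libraries were above all WT libraries, with a difference of 0.46 in mean log2 ratio (exact permutation test, two-sided p = 0.1, the smallest possible, and 0.15 adjusted over 3 ratios). KO replicate 3 gave the largest ratio. Leaving out single libraries gave differences between 0.25, without KO replicate 3, and 0.58, without KO replicate 1.

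**Figure D4:**
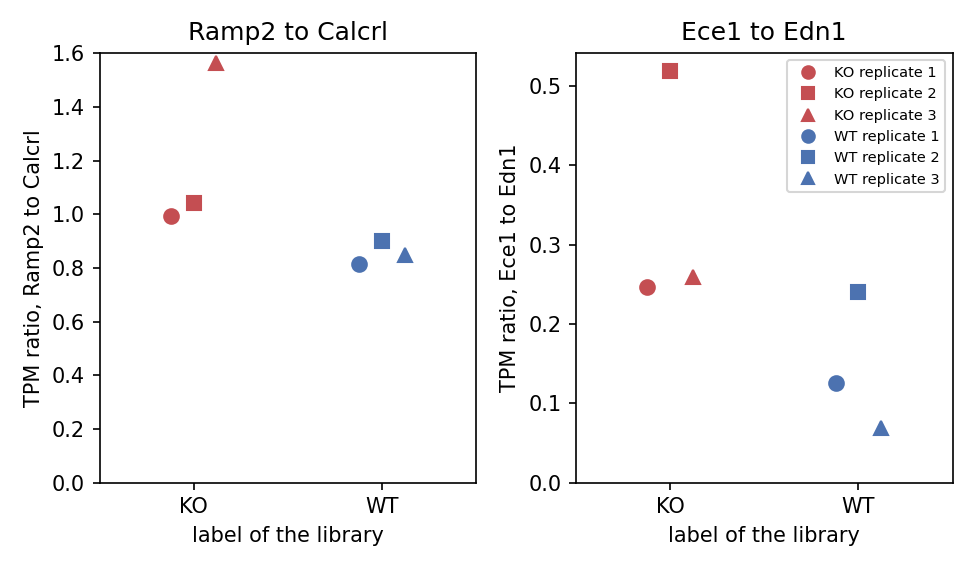
TPM ratios within each library, Ramp2 to Calcrl on the left and Ece1 to Edn1 on the right, with KO libraries left of WT libraries on linear axes from 0. Each KO point lies above each WT point in both panels, narrowly so for Ece1 to Edn1 (0.247 against 0.240).

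The other partners and the receptors listed with the peptide family were less abundant. Ramp3, which also makes an adrenomedullin receptor, was at 46.0, 48.1 and 52.1 CPM in KO and at 33.6, 45.6 and 97.9 CPM in WT, and its TPM was 0.0287 to 0.0798 of that of Ramp2. Its highest library was WT replicate 3, as for Edn1. Ramp1, the partner for calcitonin gene-related peptide, averaged 1.16 ± 0.318 TPM in KO and 0.787 ± 0.485 TPM in WT. Gpr182, a receptor gene placed in the same list, averaged 228 ± 44.7 TPM in KO and 225 ± 72.6 TPM in WT. Ackr3, a scavenging receptor, averaged 220 ± 78.6 CPM in KO and 208 ± 8.83 CPM in WT. Of 18 genes of this family 14 were tested and none passed, 7 positive and 7 negative, with a median log2 fold change of 0.01.

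KO replicate 2 was the library with the highest CPM for 6 of 10 members, Ace, Adm, Calcrl, Ece1, Ptgs1 and Ramp2, and for 3080 of 14667 tested genes. It was lowest for 1 member, Ptgis. Some markers of lung capillaries stood high in it as well, and others did not. Apln, listed as an aerocyte marker, was there at 0.567 times the mean of the other KO libraries. Aplnr, listed as a general capillary marker, was at 0.744 times that mean. Car4, an aerocyte marker, was at 614, 1660 and 1106 CPM in KO and at 844, 909 and 1235 CPM in WT. The 8 aerocyte markers, all detected, summed to 3558, 6407 and 5362 CPM in KO and to 4270, 4824 and 4956 CPM in WT. Lpl, a lipase gene listed as a general capillary marker, was at 127, 1204 and 138 CPM in KO and at 134, 120 and 216 CPM in WT. The 8 general capillary markers, Lpl among them, summed to 8349, 10622 and 7620 CPM in KO and to 7733, 7995 and 7482 CPM in WT. In bulk RNA, more cells of a kind and more RNA per cell cannot be told apart. Epithelial markers differed between libraries too. The 8 alveolar type 2 markers, all detected, summed to 3528, 2318 and 759 CPM in KO and to 9077, 336 and 4038 CPM in WT. The 6 alveolar type 1 markers, all detected, summed to 492, 969 and 503 CPM in KO and to 590, 530 and 614 CPM in WT, with KO replicate 2 the highest. Venous markers summed to 957 to 1452 CPM in KO and 442 to 671 CPM in WT, without overlap. Of the 6 tested, all 6 were positive and 3 were without overlap singly. Lymphatic markers summed to 985 to 1305 CPM in KO and 357 to 690 CPM in WT, also without overlap. Of the 5 tested, however, 3 were positive and 2 negative, and only Lyve1 was without overlap singly. Over all tested genes, the labels did not overlap for 20.3%. The part of these capillary, epithelial, venous and lymphatic markers in the members' levels was not tested.

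**Figure D5:**
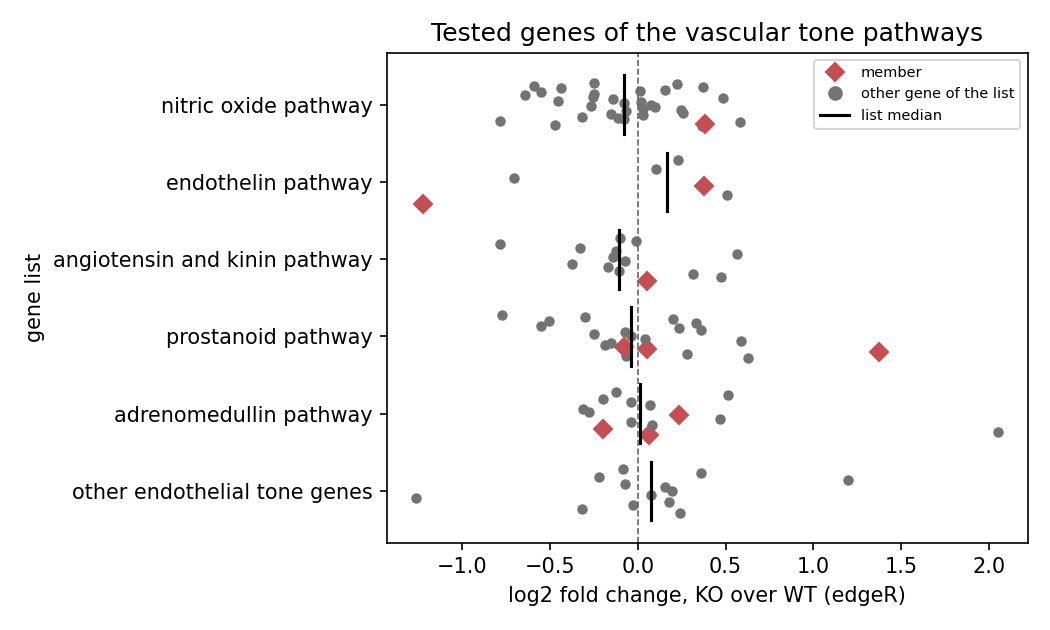
Log2 fold change, KO over WT, of every tested gene in 6 lists of vascular tone genes, with members as red diamonds, other genes as grey points and the list median as a black bar. List medians lie between -0.11 and 0.17, and none of the genes passed the edgeR test.

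Among 17 other endothelial tone genes 13 were tested and none passed by edgeR, with 7 positive, 6 negative and a median log2 fold change of 0.08. DESeq2 called 1 of these genes, where it called 2.79% of all genes. This was Gja4, which encodes the arterial connexin 37 of the junctions that spread dilation. It was at 994, 802 and 646 CPM in KO and at 1402, 1559 and 2890 CPM in WT, without overlap (log2 fold change -1.26, SE 0.30, edgeR adjusted p = 0.282, DESeq2 adjusted p = 0.00102). Like Edn1 it was highest in WT replicate 3. Gja5, the arterial connexin 40, overlapped between the labels (log2 fold change 0.08, SE 0.35), as did Aplnr, the apelin receptor, the most abundant of this list after Gja4 (log2 fold change -0.08, SE 0.19).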

How the data were processed

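RNA of 6 libraries of sorted mouse lung endothelial cells was analysed, 3 labelled KO and 3 labelled WT, grouped by sample title. Estimated counts per Ensembl gene were deposited by the authors as whole numbers, and TPM values per gene were deposited by the authors in a second table. Per the submitters' processing notes the tool was kallisto and the build mm10; no source used here gives versions, annotation or strand handling, so reads of a gene and of an opposite-strand partner cannot be told apart. Per the labels' protocols RNA was amplified with an ultra-low-input kit and read in pairs.

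GENCODE M21, of the same assembly, gave symbols for 24298 of 24520 genes and their positions, and RefSeq (GRCm38.p6) the upstream sequences of 7 of 10 members. Counts were rounded, which changed none, filtered with filterByExpr and tested over 14667 genes with edgeR 4.0.16 (R 4.3.3, TMM factors, quasi-likelihood, Benjamini-Hochberg at 0.05), all 6 libraries and no covariate. The standard error is the log2 fold change divided by the square root of F. Ratios of TPM were tested by exact permutation over libraries. DESeq2 1.42.0 and limma 3.58.1 on log2(TPM + 1) served as alternatives, and the edgeR fit was tested on simulated data.

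The members, lists and tests were chosen with earlier results of these data known. Named genes were the 10 members and, from each pathway list with no call, the 3 most abundant other genes and the tested receptors and enzymes acting on a member or its product. Genes outside that rule (Nos2, Prmt1, Gch1, Adm2, Ece2, Ldha, Cd74, Pf4, Car4 and Lpl) and the ratios Nos2 to Nos3 and Ptgs1 to Ptgis were chosen after their values were seen. Nearest profiles were sought among tested genes with a mean of at least 10 CPM. The counting interval covers counting error only, since amplified reads are not independent molecules. Between replicates of a label, chi-square divided by its degrees of freedom was 44.8 to 99.2, far above sampling noise.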

Additional observations from a re-analysis of the deposited data

How the results depend on the processing

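No member passed the threshold under any of 18 alternatives in which it was tested (15 for Ptgs2); the lowest adjusted p was 0.29, for Ptgs1. The count of genes passing over all genes was 5 and depended on the choice: 412 by DESeq2, 3 by limma on log2(TPM + 1) without a filter, 2 with sex as a covariate, 0 with the replicate block (1472 genes at an unadjusted p under 0.05), 1 to 4 when 1 library was left out, and 0 without KO replicate 2 and WT replicate 3 (1382 at an unadjusted p under 0.05), a setting chosen after seeing the data. By DESeq2, 2 nitric oxide genes and 1 other tone gene passed. The median of the members ran from -0.06 without KO replicate 2 to 0.26 without WT replicate 3 among the fits that left out 1 library. No sign change involved a value past the threshold; Nos3, Edn1, Ptgs1, Ramp2 and Calcrl kept their sign in all 18, whereas Adm changed sign in 8, Ptgis and Ptgs2 in 4, Ace in 2 and Ece1 in 1. The cause of these shifts was not tested.

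Replicate numbers did not pair the libraries: same-numbered libraries deviated from their label means with correlations of 0.28, -0.05 and -0.18, and only replicate 1 correlated best with its own number. Depth limits Ptgs2 most, with 1 to 104 counts per library.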
